A study of Mus musculus with 9 samples.

Results

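The protein components of the cytosolic ribosome were followed in mouse MLL-AF9 acute myeloid leukemia cells before and during induction of the reprogramming factors Oct4, Sox2, Klf4 and c-Myc (OSKM). Genes were taken by symbol: each probe set had to carry a single gene symbol in the platform annotation, starting with Rpl or Rps and a digit, without pseudogene symbols and without the Rps6k kinases. This gave 103 probe sets, and for each gene the probe set brightest on average across the 9 arrays was kept. The result was 65 genes of 22180 with a single symbol. They comprise 22 proteins of the small subunit, 32 of the large subunit, 10 paralogs or retrocopies and Rps19bp1, which encodes a protein that binds RPS19 and is not itself part of the ribosome. The rule itself uses no measured value other than the mean that selects among probe sets of the same gene.

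The cells carried a human MLL-AF9 fusion gene and the 4 reprogramming factors behind a tetO promoter, and grew in sub-lethally irradiated C57BL/6J recipients. Leukemia cells were sorted by FACS from the spleen of mice given no doxycycline (control, 3 arrays), after 48 h of doxycycline (Dox 48 h, 3 arrays) and after 72 h (Dox 72 h, 3 arrays), and total RNA was measured on Mouse Gene 2.0 ST arrays (Affymetrix). All groups carried the fusion and the cassette, and no group received the drug without it, so effects of doxycycline and of OSKM cannot be told apart. The labels call the replicates biological but do not tie each to a mouse of its own, so the p-values cover only the spread among these samples. Irradiated recipients retain cells of their own, and the arrays report the leukemia cells that were left at each time. In bulk RNA, fewer cells of a type and less RNA per cell cannot be told apart.

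Ribosomal proteins surround and stabilize the ribosomal RNA of the small subunit, which reads the messenger RNA, and of the large subunit, which joins amino acids. Their mRNAs are among the most abundant of growing cells, and most begin with a cytosine followed by a run of pyrimidines, the terminal oligopyrimidine (TOP) motif, through which mTORC1 and LARP1 adjust their translation and stability. The factor c-Myc is known to raise transcription of ribosomal genes, and RPL5 and RPL11 bind MDM2 when ribosome assembly is disturbed. Ribosomal protein genes also have many processed pseudogenes, so a probe set can take up signal from near-identical copies.

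The sequences at the annotated starts show which genes begin with such a pyrimidine run. RefSeq windows of mouse (GRCm38.p6), 250 bases before to 50 bases after an annotated start, were found for 51 of the 65 genes, with 60 windows in all. Below, 30 bases around the start are printed 5′ to 3′ on the strand of the gene, the first transcribed base being the first after 15 upstream bases. Capitals mark a cytosine at the first transcribed base and the pyrimidines that follow it without a break. These 10 genes have such a run of at least 4 pyrimidines after the cytosine.
Rps6 (chr4:86857353-86857382, minus strand): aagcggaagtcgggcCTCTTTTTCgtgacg
Rps10 (chr17:27635230-27635259, minus strand): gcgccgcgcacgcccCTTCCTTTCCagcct
Rps18 (chr17:33955651-33955680, minus strand): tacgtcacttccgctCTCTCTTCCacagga
Rps27 (chr3:90213634-90213663, minus strand): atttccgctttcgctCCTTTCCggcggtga
Rpl14 (chr9:120571502-120571531, plus strand): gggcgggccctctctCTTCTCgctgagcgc
Rpl15 (chr14:18270972-18271001, minus strand): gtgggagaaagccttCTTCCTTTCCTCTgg
Rpl28 (chr7:4792950-4792979, plus strand): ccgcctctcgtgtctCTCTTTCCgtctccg
Rpl35 (chr2:39005117-39005146, minus strand): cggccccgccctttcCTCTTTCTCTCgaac
Rpl38 (chr11:114668565-114668594, plus strand): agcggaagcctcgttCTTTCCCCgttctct
Rpl32l (chr10:20208424-20208453, plus strand): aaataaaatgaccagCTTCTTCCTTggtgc

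For contrast, 3 genes described below have no such run at the annotated start.
Rps15 (chr10:80292416-80292445, plus strand): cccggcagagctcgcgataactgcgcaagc
Rps28 (chr17:33824548-33824577, minus strand): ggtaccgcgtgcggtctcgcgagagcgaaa
Rpl11 (chr4:136053379-136053408, minus strand): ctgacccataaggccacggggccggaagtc

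The run sat exactly at the annotated start in 10 of 60 windows of the ribosomal protein genes (16.7%), in 2.51% of all 32851 RefSeq windows and in 0 of 68 windows of mitochondrial ribosomal protein genes. When the run was allowed to begin within 10 bases of the start, it was found in 55.0% of the ribosomal protein windows and 30.7% of all windows. Annotated starts can lie a few bases from the start that a cell uses, and a run missing here says only that these letters are not at this position. The motif CCGGAAG, the core of sites of the ETS family, was present on either strand in 21 of 60 ribosomal protein windows, in 33.8% of the mitochondrial ones and in 8.86% of all windows. On the opposite strand it begins with pyrimidines, so it can overlap a pyrimidine run. The E-box CACGTG, to which Myc proteins bind, was present in 6 of 60 ribosomal protein windows and in 7.15% of all windows. The letters CCACACCC, a site of Klf proteins, were present in 3 of 60 windows and in 3.56%.

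Most ribosomal protein genes had a signal at or above the median of all probe sets, but not all of these were bright. Signals are log2 values, normalized between arrays by the authors, so a difference of 1 is a doubling. Of the 65 genes, 59 had a mean signal at or above the median of all 41345 probe sets (3.81), and 33 lay at or above the 90th percentile. The 6 genes below the median were Rpl32l, Rpl10l, Rps23rg1, Rps15, Rpl27a and Rpl3l. Of 80 core proteins of the cytosolic ribosome, 54 are covered by these genes. Of the others, 7 carry symbols of another form. A further 12 core genes occurred only in probe sets that list several symbols and 7 were not listed in the annotation, and neither were named here.

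Of the factors in the cassette, only Klf4 was called. Its probes may also see the endogenous gene, and it measured 4.73, 5.13 and 4.63 in controls, 7.92, 7.88 and 7.74 at 48 h and 6.80, 6.89 and 6.71 at 72 h, and the groups did not overlap. It rose by 3.02 ± 0.13 (SE) at 48 h (limma adjusted p = 3.1e-05) and by 1.97 ± 0.13 at 72 h (limma adjusted p = 0.000827). The Myc probe set, by contrast, lay between 8.04 and 8.53 on all 9 arrays and differed from control by -0.14 at 48 h (limma adjusted p = 0.81) and -0.07 at 72 h (limma adjusted p = 0.819). For Pou5f1, which encodes Oct4, and Sox2, the adjusted p in limma was 0.522 and 0.954 at 48 h and 0.532 and 0.756 at 72 h. By qRT-PCR, the paper reports a gradual rise of OSKM expression in these leukemia cells after doxycycline. Whether the array probe sets detect transcripts of the cassette was not tested, so a flat probe set does not show that a factor was not induced. Myeloid markers (8 of 8 genes measured) averaged 9.35 to 9.57 in controls, 9.72 to 9.84 at 48 h and 9.62 to 9.74 at 72 h, with 4 called higher and 1 lower at 48 h and 2 higher at 72 h. Markers of the MLL-AF9 program (Hoxa9, Hoxa10, Meis1, Mef2c and Myb) averaged 8.96 to 9.23 over all arrays, and 5 of 5 lay above the median signal of all probe sets.

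The first question was whether any ribosomal protein mRNA changed after OSKM induction. None passed the test in either direction: 0 of 65 genes were called at 48 h, at 72 h or between these times (limma, two-sided, Benjamini-Hochberg over all probe sets, adjusted p under 0.05). Over all probe sets, 1.12% were called higher and 0.481% lower at 48 h, 1.16% higher and 1.33% lower at 72 h, and 0.00726% higher and 0.208% lower at 72 h against 48 h. The F test over the 3 groups also called 0 of 65 genes, against 2.24% of all probe sets. At an unadjusted p under 0.05, limma gave 3 genes at 48 h (10.2% of all probe sets), 9 at 72 h (16.8%), 12 at 72 h against 48 h (12.3%) and 10 by the F test (15.8%). The lowest adjusted p of any ribosomal protein gene was 0.0912 at 48 h, 0.0995 at 72 h and 0.251 between the times.

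The 95% intervals show how precisely the change in normalized array signal was measured. They do not bound the mRNA level itself and leave out uncertainty from the normalization. At 48 h, the 95% interval of the log2 fold change lay within ±0.5 for 55 of 65 genes, where 67.6% of all probe sets met this limit. At 72 h it did so for 49 genes (63.8% of all probe sets), and for 50 genes between the times (66.1%). Intervals within ±1 were obtained for 63, 62 and 63 genes. The lowest bounds were -0.79 at 48 h and -0.68 at 72 h. The highest were 1.26 at 48 h, for Rps16, and 1.16 at 72 h, for Rps20. The upper bound also passed 1 for Rps15 at 48 h (1.02) and for Rpl37a (1.14) and Rps16 (1.04) at 72 h. For these genes a doubling of the signal was not excluded by the data.

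**Figure D1:**
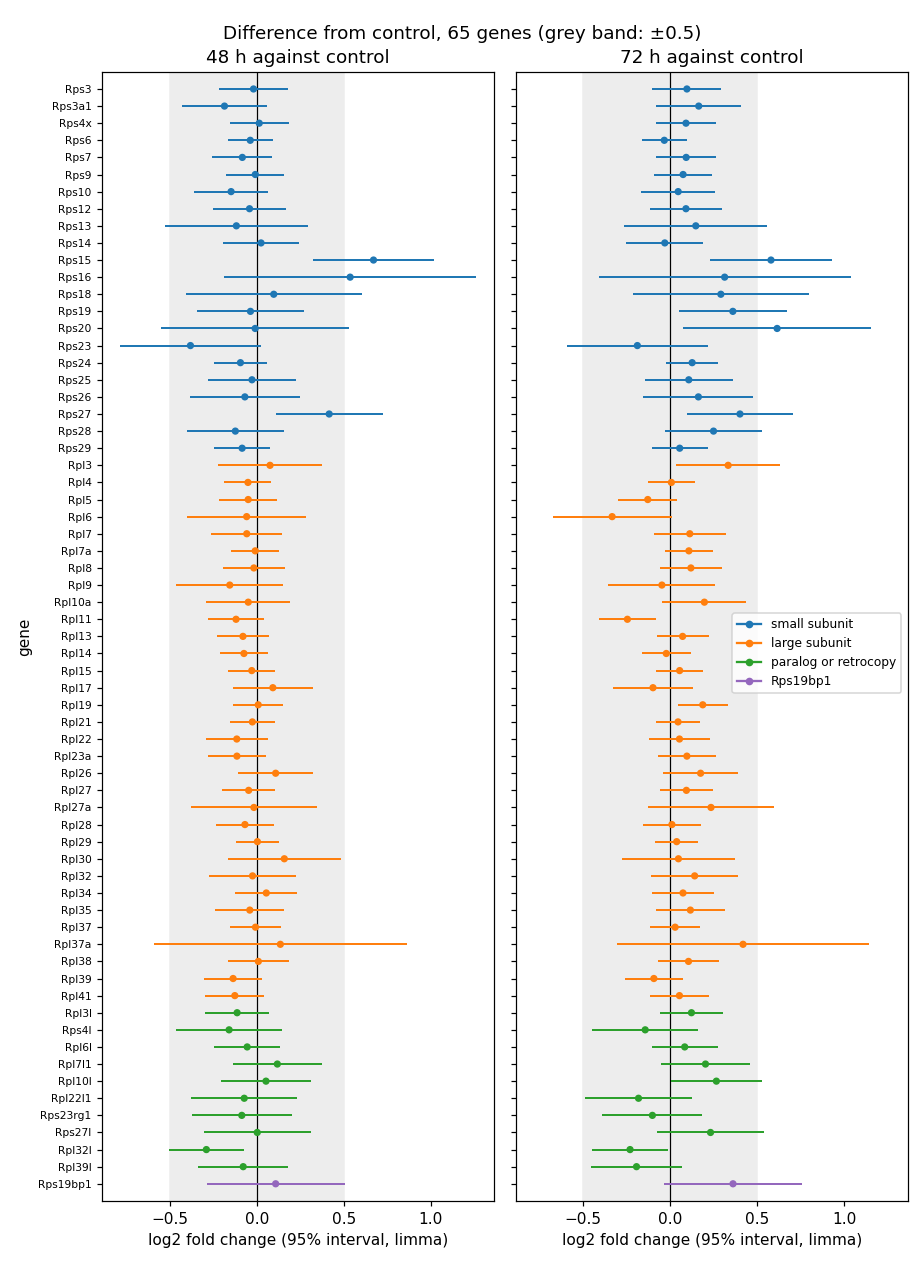
Log2 fold change of each of the 65 genes at 48 h and at 72 h against control, with 95% intervals from limma (3 arrays per group). Points are coloured by class and the grey band spans ±0.5; intervals of 55 genes at 48 h and 49 genes at 72 h lie inside it.

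By sign alone the genes leaned one way at each time, with small differences. At 48 h, 46 of 65 genes lay below control (54.6% of all probe sets did), with a median difference of -0.04 (log2) against -0.0150 over all probe sets. At 72 h, 50 of 65 lay above control (48.0% of all probe sets), with a median of 0.09, a 1.07-fold difference, against -0.00821 over all probe sets. Between the times, 53 of 65 were higher at 72 h (50.4% of all probe sets), with a median of 0.13 against 0.00176. Among probe sets at or above the 90th percentile of signal, 55.1% lay below control at 48 h and 48.7% above it at 72 h. These counts are descriptions of genes that share arrays and were not tested as a list. With each array centred on its median, 35 of 65 genes lay below control at 48 h, and the median was -0.0042 against 0.0208 over all probe sets. Centring shifts all probe sets on an array alike, so it moved the zero and left the genes' place relative to all probe sets unchanged. The share of all probe sets below control was not counted after centring. The centred median at 72 h was 0.18, against 0.0823 over all probe sets, and 11 of 65 genes lay below control. Between the times it was 0.19 against 0.0564.

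A single array carried much of the 72 h lean. The mean deviation of the 65 genes from their 9-array means was -0.07, -0.0040 and 0.00087 in controls, -0.0020, -0.08 and -0.04 at 48 h, and -0.01, 0.05 and 0.17 at 72 h. Array Dox 72 h 3 was the highest of all 9 for 36 of the 65 genes, whereas it was highest for 19.3% of all probe sets and for 23.8% of those at or above the 90th percentile. It was the lowest of the 9 for 4 of the 65 genes. Among all probe sets it was lowest for 20.7%, and for 26.9% at or above the 90th percentile. Array Dox 48 h 2 was the lowest for 22 of the 65 genes (10.5% of all probe sets, and 16.4% at or above the 90th percentile), and control 1 was the lowest for 13 genes (10.4%). Without Dox 72 h 3, 44 of 65 genes lay above control at 72 h (47.7% of all probe sets), and the median was 0.04. In that fit 0 of the 65 genes were called, with 4 at an unadjusted p under 0.05 (limma). Of all 41345 probe sets, 468 were called and 5640 met the unadjusted limit. The median between the times was 0.07 without that array.

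**Figure D2:**
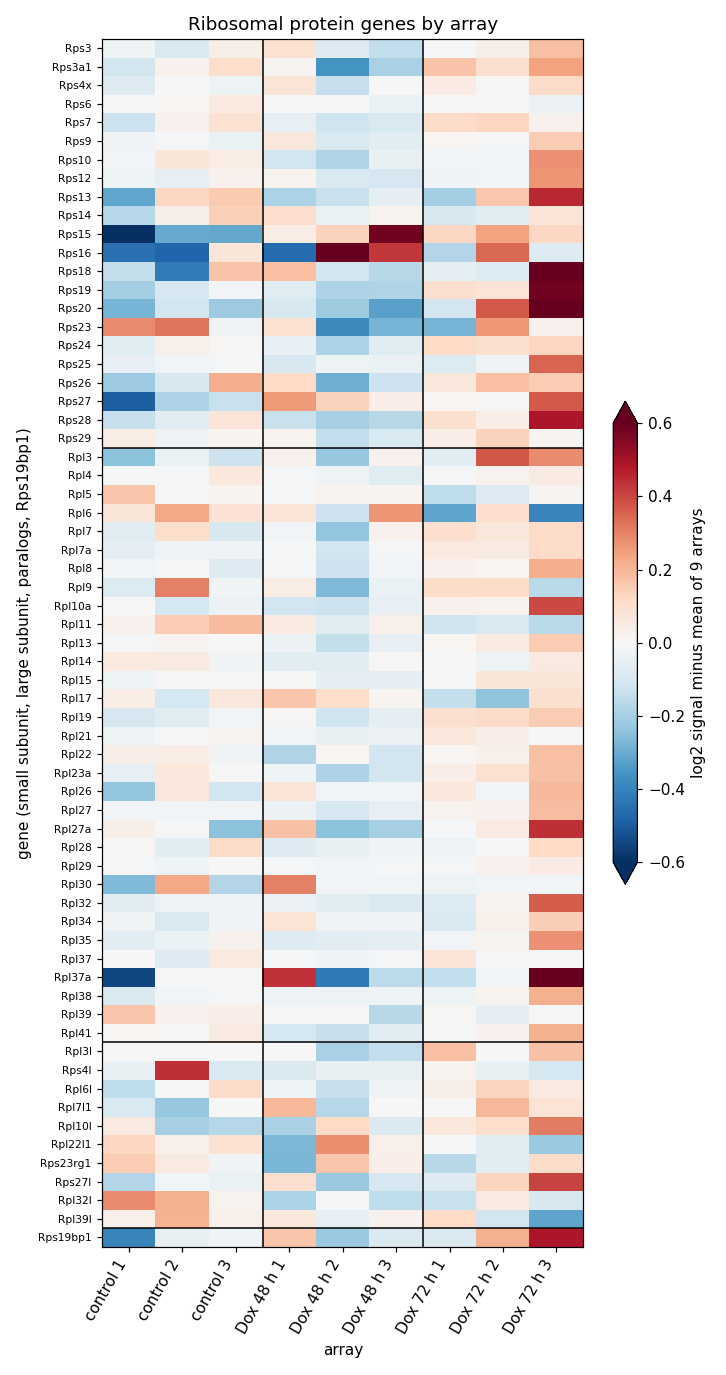
Log2 signal of each gene on each array minus the gene's mean over the 9 arrays; rows are the 65 genes by class and columns the 3 groups of 3 arrays, with colours capped at ±0.6. The column of Dox 72 h 3 is the highest in 36 rows, and that of Dox 48 h 2 the lowest in 22.

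Averages of marker lists for other cell types were also highest on Dox 72 h 3. T cell markers (5 of 8 measured, 3 of them below the median signal of all probe sets) averaged 5.09 there and 3.49 to 4.39 on the other arrays, the upper end being control 3. B cell markers (7 of 8 measured, 5 below the median) averaged 4.94 against 3.97 to 4.18, and NK cell markers (6 of 6, 5 below the median) 4.52 against 3.12 to 3.83. Platelet markers (3 of 4) averaged 6.96 against 4.82 to 5.43, and erythroid markers (4 of 8) 6.08 against 4.94 to 5.72. Plasma cell markers (5 genes, all measured) averaged 6.67 against 5.25 to 6.05. Red pulp macrophage markers (6 genes, all measured) were 6.63 on Dox 72 h 3 and 6.58 on control 3, against 5.56 to 6.36 on the others. Of these lists, 1 B cell gene and 1 plasma cell gene were called higher at 72 h (1.16% of all probe sets). Members of a list did not all move together. Differences at 72 h against control (log2) were 2.26 for Jchain and -0.07 for Xbp1 among plasma cell markers. They were 1.70 for Gzmb and 0.07 for Ncr1 (NK cell), and 0.84 for Klf1 and -0.43 for Tfrc (erythroid). Among red pulp macrophage markers they were 0.27 for Adgre1 and -0.82 for Vcam1. Whether the leukemia cells express some of these markers was not tested. The cells had been sorted, and the part of these marker transcripts in the ribosomal protein signal was not tested.

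**Figure D3:**
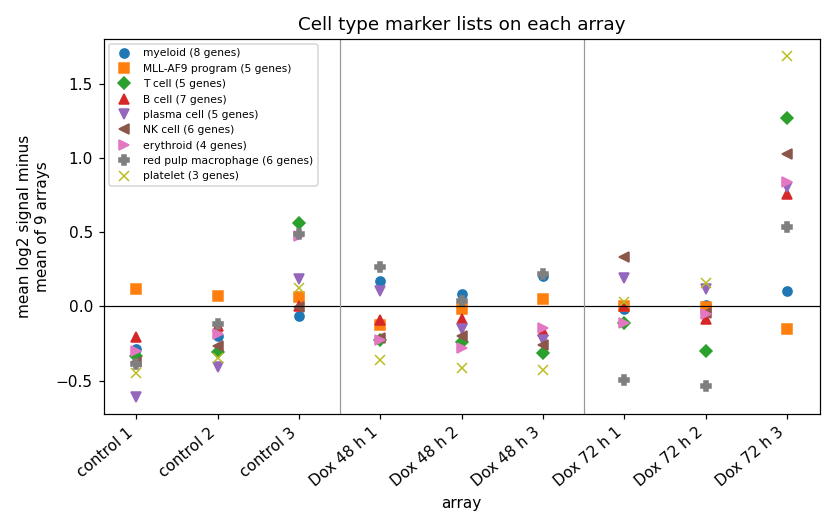
Mean log2 signal of each cell type marker list on each array, minus its mean over the 9 arrays. Dox 72 h 3 has the highest value for the T, B, plasma, NK, erythroid, platelet and red pulp macrophage lists, and control 3 the next highest for T cell, erythroid and red pulp macrophage markers.

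Genes of the small subunit had the larger median at 72 h. Of 22, 19 lay above control with a median difference of 0.12 (log2), while of 32 genes of the large subunit 25 lay above control with a median of 0.06. The difference between subunits was not tested. On Dox 72 h 3, small subunit genes deviated by 0.25 on average and large subunit genes by 0.14. Without that array the medians at 72 h were 0.07 and 0.04. The paralogs and retrocopies had a median of -0.0099 at 72 h, with 5 of 10 above control, and a mean deviation of 0.04 on Dox 72 h 3.

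**Figure D4:**
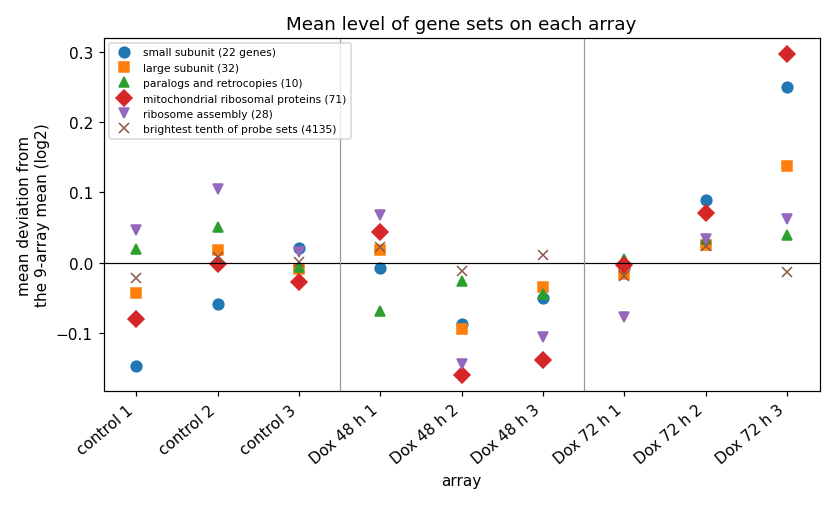
Mean deviation of 6 gene sets from their 9-array means on each array (log2), with the number of genes or probe sets in the key. On Dox 72 h 3 the small subunit stands at 0.25, the large subunit at 0.14 and the mitochondrial ribosomal proteins at 0.30.

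Within the small subunit, Rps15, a protein of the head of the small subunit, had the lowest p against control at both times. It measured 2.81, 3.15 and 3.15 in controls, 3.50, 3.59 and 4.04 at 48 h, and 3.58, 3.69 and 3.58 at 72 h. All treated arrays lay above all controls. The differences were 0.67 ± 0.15 (SE; limma adjusted p = 0.0912) and 0.58 ± 0.15 (limma adjusted p = 0.0995), and neither passed. Its signal lay below the median of all probe sets, and no detection call was used.

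Rps27, a zinc finger protein of the small subunit with a TOP run printed above, followed the same pattern at a higher signal. It measured 7.20, 7.51 and 7.56 in controls, 7.95, 7.83 and 7.73 at 48 h, and 7.71, 7.70 and 8.06 at 72 h. Again every treated array exceeded every control, with control 1 the lowest. The log2 fold changes were 0.42 ± 0.13 (limma adjusted p = 0.274) and 0.40 ± 0.13 (limma adjusted p = 0.179). These genes were the only 2 of the 65 whose 48 h arrays lay wholly above the controls (7.37% of all probe sets), and 6 lay wholly below (8.0%), namely Rpl13, Rpl27, Rpl32l, Rpl39, Rpl41 and Rps10.

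Rps23, which lies at the decoding center, had the lowest log2 fold change of the 65 genes at 48 h. It read 6.51, 6.55 and 6.20 in controls, 6.32, 5.85 and 5.95 at 48 h and 5.95, 6.49 and 6.26 at 72 h, so the groups overlapped. Its difference at 48 h was -0.38 with a 95% interval of -0.79 to 0.02 (limma adjusted p = 0.53).

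A group of 3 small subunit genes had the smallest p between 48 h and 72 h. Rps24, a gene mutated in some patients with Diamond-Blackfan anemia, read 10.34, 10.20 and 10.32 at 48 h and 10.51, 10.49 and 10.53 at 72 h, and 10.32, 10.43 and 10.40 in controls. The 72 h arrays lay above all others, and the difference from 48 h was 0.22 ± 0.07 (limma adjusted p = 0.251). Rps3a1, at the mRNA exit side of the subunit, read 10.21, 9.83 and 9.995 at 48 h and 10.36, 10.29 and 10.43 at 72 h, a difference of 0.35 ± 0.11 (limma adjusted p = 0.262). Rps28, a neighbour of the mRNA exit channel, read 10.69, 10.62 and 10.66 at 48 h and 10.92, 10.86 and 11.31 at 72 h. In both, the times did not overlap, and in Rps28 the third 72 h array stood above the other two. The difference of Rps28 was 0.37 ± 0.12 (limma adjusted p = 0.29), and 0.23 without Dox 72 h 3. In all, 18 of 65 genes had 72 h arrays wholly above the 48 h arrays (7.13% of all probe sets), and Rpl11 alone had them wholly below (8.15%).

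Rps19, the gene most often mutated in Diamond-Blackfan anemia, measured 10.28, 10.38 and 10.47 in controls, 10.42, 10.30 and 10.31 at 48 h, and 10.58, 10.57 and 11.07 at 72 h. Values at 72 h lay above the rest, Dox 72 h 3 by the widest margin. Its difference from control at 72 h was 0.36 ± 0.13 (limma adjusted p = 0.227), and 0.20 without that array. Rps20, chosen after its values were seen as the gene with the highest log2 fold change at 72 h against control, showed the same dependence. It read 4.03, 4.21 and 4.10 in controls, 4.22, 4.10 and 3.99 at 48 h and 4.20, 4.68 and 5.30 at 72 h. The 72 h arrays spread over more than 1 log2 unit and overlapped the controls. Its difference at 72 h was 0.61 ± 0.24 (limma adjusted p = 0.238), and 0.33 without Dox 72 h 3.

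Rps6, whose protein is phosphorylated by the S6 kinases downstream of mTORC1, was among the steadiest signals. It read 12.51, 12.52 and 12.57 in controls, 12.51, 12.51 and 12.47 at 48 h, and 12.51, 12.51 and 12.47 at 72 h. Its 95% interval ran from -0.17 to 0.09 at 48 h and from -0.16 to 0.09 at 72 h. Within-group SDs of the 65 genes had a median of 0.107, against 0.143 over all probe sets and 0.110 over those at or above the 90th percentile, and ranged from 0.0178 (Rpl29) to 0.446 (Rpl37a). Rps16, chosen after its values were seen for its spread, read 3.39, 3.37 and 3.91 in controls and 3.38, 4.64 and 4.26 at 48 h. Its 48 h arrays lay on both sides of the controls, and its difference was 0.54 ± 0.32 (limma adjusted p = 0.66), with 0.90 and 0.26 when Dox 48 h 1 or Dox 48 h 2 was left out. The mean signal of Rps16 was low, 3.84, at the 51st percentile of all probe sets.

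In the large subunit, Rpl11, a component of the 5S ribonucleoprotein that binds MDM2, had the lowest p in the downward direction. It measured 4.04, 4.17 and 4.21 in controls, 4.07, 3.95 and 4.05 at 48 h, and 3.90, 3.93 and 3.86 at 72 h. Every array at 72 h lay below all other arrays. The difference was -0.25 ± 0.07 (95% interval -0.41 to -0.08, limma adjusted p = 0.125) and did not pass. Rpl11 gave a low signal: it averaged 4.02 over the 9 arrays, little above the all-probe-set median of 3.81. Whether so low a signal follows the Rpl11 transcript was not tested. The partner of Rpl11 in the same particle, Rpl5, read 5.83, 5.66 and 5.69 in controls and 5.52, 5.59 and 5.68 at 72 h. These groups overlapped, with a difference of -0.13 ± 0.07 (limma adjusted p = 0.427), and -0.08 without control 1.

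Rpl19, a large subunit protein that reaches across to the small subunit, measured 11.56, 11.59 and 11.65 in controls, 11.67, 11.54 and 11.61 at 48 h, and 11.76, 11.78 and 11.82 at 72 h. At 72 h it lay above all other arrays, by 0.19 ± 0.06 against control (limma adjusted p = 0.182). It was 1 of 11 genes whose 72 h arrays lay wholly above the controls (9.1% of all probe sets), with Rpl7a, Rpl8, Rpl10a, Rpl10l, Rpl27, Rps4x, Rps15, Rps19, Rps24 and Rps27. A further 3 lay wholly below (11.6%), namely Rpl11, Rpl22l1 and Rpl39.

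Rpl21 and Rpl28, both large subunit proteins, were named with Rps6 for having the 3 highest mean signals. Rpl21 read between 12.62 and 12.74 on all arrays. Rpl28 read between 12.52 and 12.71. Their 95% intervals at 72 h ran from -0.08 to 0.17 and from -0.16 to 0.18. Rpl37a, named after its values were seen for the highest within-group SD, read 4.93, 5.47 and 5.47 in controls and 5.33, 5.46 and 6.34 at 72 h. Its difference was 0.42 ± 0.32 (limma adjusted p = 0.559), and 0.24 without control 1 or 0.10 without Dox 72 h 3. Rpl6 was named after its values were seen, for the lowest log2 fold change at 72 h. It read 5.17, 5.33 and 5.18 in controls and 4.78, 5.20 and 4.70 at 72 h, with overlap. The difference of Rpl6 was -0.33 ± 0.15 (limma adjusted p = 0.308). The probe set of its copy Rpl6l was far brighter, with a mean signal of 10.57 against 5.10, and differed by 0.08 at 72 h. Whether that probe set takes up Rpl6 transcripts was not tested.

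Among the paralogs, Rpl22l1, which can stand in for Rpl22 on the ribosome, read 5.14, 5.04 and 5.10 in controls, 4.74, 5.29 and 5.04 at 48 h, and 5.01, 4.94 and 4.79 at 72 h. The 72 h arrays lay below the controls, while the 48 h arrays lay on both sides. The difference at 72 h was -0.18 ± 0.13 (limma adjusted p = 0.543), and -0.12 without Dox 72 h 3. Rpl22 itself read 5.08, 5.08 and 5.02 in controls and 5.05, 5.07 and 5.22 at 72 h, a difference of 0.05 with a 95% interval of -0.12 to 0.23, which was 0.03 without control 3, 0.08 without Dox 72 h 1 and 0.00027 without Dox 72 h 3.

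Rps27l, a paralog of Rps27, read 7.03, 7.19 and 7.17 in controls, 7.30, 6.98 and 7.11 at 48 h, and 7.13, 7.34 and 7.61 at 72 h. The groups overlapped and the highest value was again on Dox 72 h 3. The difference at 72 h was 0.23 ± 0.13 (limma adjusted p = 0.434), with 0.35 without Dox 72 h 1 and 0.11 without Dox 72 h 3. Rpl7l1, a nucleolar assembly factor related to Rpl7, read 6.63 to 6.86 in controls and 6.86 to 7.06 at 72 h, a difference of 0.20 ± 0.11 (limma adjusted p = 0.408).

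The tissue-restricted paralogs gave no call. Rpl3l, the form of heart and skeletal muscle, read 3.55 on all 3 controls, 3.55, 3.35 and 3.40 at 48 h, and 3.73, 3.55 and 3.73 at 72 h. Its difference between the times was 0.23 ± 0.08 (limma adjusted p = 0.307). The controls, Dox 48 h 1 and Dox 72 h 2 all held the same value, 3.54583, and the signal lay below the median of all probe sets. Equal values at so low a signal do not show a steady transcript level. Rpl10l and Rpl39l, forms of male germ cells, read 2.41 to 2.91 and 4.21 to 4.73 over the 9 arrays, with differences at 72 h of 0.27 ± 0.11 (limma adjusted p = 0.288) and -0.19 ± 0.11 (limma adjusted p = 0.44). For Rpl39l the difference was -0.31 without Dox 72 h 1 and -0.09 without Dox 72 h 3. Rpl32l, a dim retrocopy, read 2.87, 2.80 and 2.61 in controls, 2.40, 2.58 and 2.43 at 48 h and 2.45, 2.64 and 2.49 at 72 h. Its 48 h arrays lay below the controls, by -0.29 ± 0.09 (limma adjusted p = 0.285). The remaining 3, Rps4l, Rpl6l and Rps23rg1, had 72 h differences of -0.14, 0.08 and -0.10, all with 95% intervals within ±0.5. Rps19bp1 read 6.51 to 6.88 in controls and 6.81 to 7.39 at 72 h, a difference of 0.36 ± 0.17 (limma adjusted p = 0.346).

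Genes whose printed start carries the TOP run can be set beside the others. The 10 with the run had median differences of -0.04 at 48 h and 0.05 at 72 h (log2), with 7 above control at 72 h. The 41 with a window and no run at the start had medians of -0.05 and 0.10, with 32 above control. These 41 include genes with the run a few bases away. Within 10 bases of the start it was found in 33 of 60 windows, against 10 exactly at the start. The difference between the 10 and the 41 was not tested.

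Different probe sets of a gene did not always run together. Of the 65 genes, 22 had over 1 probe set, 60 in all, and in 3 of them some probe sets held identical values. Of the 38 probe sets not used, 1 passed the test. This was a probe set of Rpl3, which encodes a protein beside the peptidyl transferase center, and it read 8.74, 8.17 and 8.36 in controls, 7.93, 8.31 and 8.16 at 48 h, and 7.44, 7.77 and 7.05 at 72 h. All arrays at 72 h were below the controls, and the signal fell by 1.01 ± 0.21 on the log2 scale at 72 h (limma adjusted p = 0.0499, and 0.0298 to 0.154 over the alternatives). The brighter Rpl3 probe set read 9.43, 9.64 and 9.56 in controls and 9.62, 10.05 and 9.96 at 72 h, a difference of 0.33 ± 0.13 in the opposite direction (limma adjusted p = 0.243). The call of the dimmer Rpl3 probe set was lost when any 1 of the 9 arrays was left out. Among 56 probe sets with several symbols that include an Rpl or Rps gene, 1 was also lower at 72 h, by -0.76 (limma adjusted p = 0.0051), and cannot be assigned to a gene.

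**Figure D5:**
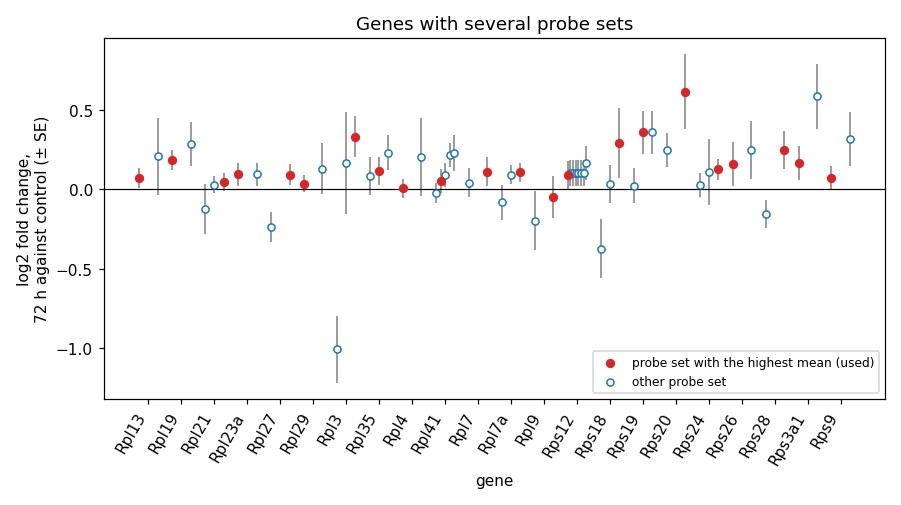
Log2 fold change at 72 h against control (± SE from limma) for every probe set of the 22 genes that have several; filled points mark the probe set used. The Rpl3 probe set at -1.01 is the only 1 of the 60 that passed, while the other Rpl3 probe sets lie above 0.

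Few genes of neighbouring groups were called. Of 71 mitochondrial ribosomal protein genes, which serve the separate ribosome of mitochondria, 1 rose at 72 h and 0 fell. The shares of all probe sets were 1.16% and 1.33%. The median differences of the 71 genes (log2) were -0.06 at 48 h and 0.14 at 72 h. On Dox 72 h 3, 54 of 71 were at their highest (19.3% of all probe sets). Without that array the 72 h median was 0.05. Mrps31, a small subunit protein, read 6.45, 6.62 and 6.57 in controls, 6.76, 6.72 and 6.66 at 48 h and 7.01, 6.83 and 7.02 at 72 h. Treated arrays all exceeded controls, and it rose by 0.40 ± 0.08 at 72 h (limma adjusted p = 0.0455, and 0.028 to 0.148 over the alternatives), a call lost without any 1 array.

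Of 28 measured ribosome assembly genes, 1 rose and 0 fell at 72 h (1.16% and 1.33% of all probe sets). At 48 h, 0 were called, with 6 at an unadjusted p under 0.05 (limma), all lower (4.95% of all probe sets). Gar1, a protein of the box H/ACA particles that guide pseudouridylation, read 6.38, 6.49 and 6.23 in controls, 6.39, 6.33 and 6.30 at 48 h and 6.71, 6.83 and 6.74 at 72 h. The 72 h arrays lay above all others, and it rose by 0.39 ± 0.08 (limma adjusted p = 0.0488, and 0.030 to 0.145 over the alternatives), a call lost without any 1 array. The group's median was -0.11 at both times.

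Of 17 measured translation factors and related TOP mRNAs, 0 were called in any comparison (limma). At an unadjusted p under 0.05 (limma) there were 1 at 48 h, 3 at 72 h and 3 between the times. The shares over all probe sets were 10.2%, 16.8% and 12.3%. Tpt1, a TOP mRNA encoding TCTP, read 9.83, 9.84 and 9.87 in controls and 10.13, 10.16 and 10.36 at 72 h, without overlap, a difference of 0.37 ± 0.08 (limma adjusted p = 0.0603, and 0.0374 to 0.177 over the alternatives). Pabpc1, the poly(A)-binding protein, read 8.26, 7.97 and 8.02 in controls and 7.77, 7.80 and 7.67 at 72 h, a difference of -0.34 ± 0.09 (limma adjusted p = 0.106). Among 5 core ribosomal proteins with other symbols, 0 were called (limma, with 0, 2 and 1 at an unadjusted p under 0.05 at 48 h, at 72 h and between the times). The same shares of all probe sets apply. Rplp0, the base of the ribosomal stalk, read 9.78, 9.65 and 9.88 in controls and 9.95, 10.08 and 10.32 at 72 h, a difference of 0.35 ± 0.11 (limma adjusted p = 0.151). Fau, the precursor of RPS30, differed by 0.24 ± 0.10 at 72 h (limma adjusted p = 0.264), and by 0.15 without Dox 72 h 3.

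Of 7 measured host genes of small nucleolar RNAs, which carry TOP starts without coding for ribosomal proteins, 1 fell at 72 h. The share of all probe sets that fell at 72 h was 1.33%. Of the 7, 6 lay below control at 48 h and 5 at 72 h (54.6% and 52.0% of all probe sets). The median differences of the 7 (log2) were -0.26 and -0.28. At an unadjusted p under 0.05 (limma), 4 and 3 were lower (4.95% and 9.57% of all probe sets). Snhg4 read 7.66, 7.54 and 7.43 in controls, 7.32, 7.31 and 7.26 at 48 h and 6.95, 6.89 and 7.19 at 72 h. It fell by 0.53 ± 0.10 on the log2 scale at 72 h (limma adjusted p = 0.0324, and 0.0141 to 0.114 over the alternatives), and this call was lost when any array except Dox 72 h 3 was left out. Of 17 regulators of mTORC1 and TOP translation, 1 rose at 48 h (1.12% of all probe sets). Ddit4, an inhibitor of mTORC1 also known as REDD1, read 5.42, 5.48 and 5.51 in controls, 6.54, 6.76 and 5.99 at 48 h and 5.73, 5.60 and 5.48 at 72 h. All 48 h arrays lay above all others, and it rose by 0.96 ± 0.18 (limma adjusted p = 0.0404, and 0.00603 to 0.150 over the alternatives), a call lost when any array except Dox 48 h 3 was left out.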

How the data were processed

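Deposited values were log2 signals per probe set. The authors' methods name RMA in the oligo package; MAS5 is the tool named in the submitters' processing notes, so the sources differ. The values were used as deposited, and no detection call was used. Scanner files were not analysed here.

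Groups were compared in limma 3.58.1 (R 4.3.3): 1 mean per group over 9 arrays, no covariate, eBayes, two-sided tests, 95% intervals from the moderated degrees of freedom, and Benjamini-Hochberg adjustment over all 41345 probe sets at a threshold of 0.05. Values after ± are standard errors. Precision is limited by having 3 arrays per group. All pairs of arrays differed in their values.

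The genes and the comparison lists were chosen with earlier results of these data known. Named genes are the 4 with the smallest p per comparison, all paralogs, the 3 brightest and 3 dimmest, Rpl5, Rpl11, Rps6, Rps19 and Rpl22, and per comparison list up to 4 genes past the threshold or, failing these, the 2 with the smallest p; the text says where another gene was picked after seeing its values. Alternatives were median centring, quantile normalization, leaving out dim probe sets, eBayes with trend, robust eBayes, array weights, a replicate block, fits of only the 2 groups compared, the mean of the probe sets of a gene and leaving out each array. Start windows and gene identifiers came from RefSeq (GRCm38.p6), and all 65 genes were matched. Python 3.11.15, pandas 2.3.3, numpy 2.4.6 and matplotlib 3.10.9 were used.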

Additional observations from a re-analysis of the deposited data

How the results depend on the processing

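The count of 0 ribosomal protein genes called higher or lower held in all 3 comparisons and in the F test under every alternative listed in the processing notes, leave-one-out fits included. The lowest adjusted p of any of these genes over the settings ran from 0.0592 to 0.264 at 48 h, from 0.0546 to 0.198 at 72 h and from 0.136 to 0.527 between the times. Leaving out dim probe sets kept 59 of the 65 genes. Leaving out each array in turn gave median log2 fold changes of -0.06 to -0.02 at 48 h, 0.04 to 0.11 at 72 h and 0.0693 to 0.152 between the times. The ends of -0.02 at 48 h came without control 3 or Dox 48 h 2, and those of 0.04 and 0.0693 without Dox 72 h 3. Median centring moved the 72 h median from 0.09 to 0.18 and the 48 h median from -0.04 to -0.0042, an alternative that shifts all probe sets on an array alike. Chosen after seeing the data were 3 further settings. With all single-symbol probe sets of the genes, 1 was lower at 72 h, the Rpl3 probe set described above. With probe sets of several symbols added, 2 were lower at 72 h and 1 passed the F test. With core ribosomal proteins only, the counts stayed at 0.

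Among named genes below the threshold, the sign of the 72 h difference changed for 3. Rpl3 was -0.169 with the mean of its probe sets. Rps6 was 0.0562 with median centring and 0.0141 with quantile normalization. Rps4l ran from -0.240 to 0.0240 over the leave-one-out fits, the upper end without control 2. Tpt1 passed the threshold at 72 h with dim probe sets left out, with trend and with quantile normalization. Leaving out 1 array also moved the 72 h differences of Rpl6l (0.0123 without control 1, 0.14 without control 3), Rps23rg1 (-0.06 without control 1, -0.04 without Dox 72 h 1, -0.18 without Dox 72 h 3) and Rps19bp1 (0.22 without Dox 72 h 3).

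The replicate numbers were not taken to pair arrays. Arrays with the same number deviated together in 2 of 9 pairs (correlations of deviations from group means -0.302 to 0.209, against a limit of 0.1), and 3 of 9 arrays correlated best with their own number. With a replicate block, 0 ribosomal protein genes were called and the lowest adjusted p was 0.111, 0.116 and 0.324 at 48 h, at 72 h and between the times. Over all probe sets, calls went from 662, 1028 and 89 to 327, 258 and 11 with the block.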
